A study of Mus musculus with 5 samples.

Results

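The urea cycle enzymes and carriers were followed here as 8 named genes, Cps1, Otc, Ass1, Asl, Arg1, Nags, Slc25a15 and Slc25a13, all 8 of which were found among the 31053 genes of the count matrices. They were taken by name as genes of the pathway, with earlier results of these data known. Single liver cells were captured in 5 libraries from C57BL/6J mice: 1 from postnatal day 14 (P14), 1 called adult control, and 1 each from adults sampled 24, 48 and 96 h after most of the liver was cut away. This operation, partial hepatectomy (PHx), leaves a remnant that regrows. Surgery was done at 8 weeks of age. Cells came from perfused liver, went through a dead-cell removal step and were captured with the 10x v3 kit, so what was counted is the unique molecular identifier (UMI), 1 per captured transcript. The labels give neither the number of animals in a library nor their sex. No transgene, deletion or drug is named for any group.

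Hepatocytes, the cells in which the cycle runs, were taken as barcodes with at least 5000 UMIs, 10% to 30% of them mitochondrial, and at least 1% of them from Alb, Apoa1 and Ttr, genes of secreted plasma proteins. The gate kept 2106 P14 cells, 925 control cells, and 1170, 719 and 771 cells at 24, 48 and 96 h. A level below is in CPM, the gene's UMIs summed over the hepatocytes of 1 library, divided by all their non-mitochondrial UMIs and scaled to a total of 1e6. Each group is 1 library, so no spread between animals can be had, no test of a difference between groups was possible, and the 95% intervals (exact Poisson for levels, exact binomial for shares and for ratios of counts) cover counting error only. A gene was called higher or lower when it stood at least 1.5-fold apart between 2 sets of cells on the log2(CPM + 1) scale, on which every log2 ratio below is given and which understates the change of low genes.

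Urea is how mammals dispose of the ammonia released when amino acids are broken down, and the complete cycle runs in the hepatocyte. It starts in the mitochondrion, where ammonia is turned into carbamoyl phosphate and then citrulline, and continues in the cytosol, where citrulline takes up a second nitrogen from aspartate and is split to yield urea and ornithine, which returns to the mitochondrion. In the liver lobule these enzymes are known to be more abundant near the portal vein than near the central vein, where glutamine synthetase takes up remaining ammonia.

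Promoters of 3 members are shown because their genes followed unlike courses after surgery. Otc fell most, Nags stood above the control at each time, and Slc25a13 over all gated hepatocytes stayed within 1.5-fold of it throughout. RefSeq's promoter table (build GRCm38.p6) held 5 of the 8 members, and each line gives the 250 bases upstream of the start site, 5′ to 3′ on the gene's strand, with motif matches on either strand in capitals. The windows are chrX:10252055-10252304 on the plus strand for Otc, chr11:102145263-102145512 on the plus strand for Nags, and chr6:6217174-6217423 on the minus strand for Slc25a13.
Otc: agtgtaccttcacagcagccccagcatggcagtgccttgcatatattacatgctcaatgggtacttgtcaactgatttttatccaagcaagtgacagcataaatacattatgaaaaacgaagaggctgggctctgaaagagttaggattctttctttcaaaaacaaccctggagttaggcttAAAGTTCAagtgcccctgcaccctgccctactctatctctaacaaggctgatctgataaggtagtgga
Nags: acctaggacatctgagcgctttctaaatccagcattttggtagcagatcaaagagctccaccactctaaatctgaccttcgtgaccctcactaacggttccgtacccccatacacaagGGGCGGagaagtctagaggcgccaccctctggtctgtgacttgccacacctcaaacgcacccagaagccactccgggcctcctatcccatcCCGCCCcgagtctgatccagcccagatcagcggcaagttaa
Slc25a13: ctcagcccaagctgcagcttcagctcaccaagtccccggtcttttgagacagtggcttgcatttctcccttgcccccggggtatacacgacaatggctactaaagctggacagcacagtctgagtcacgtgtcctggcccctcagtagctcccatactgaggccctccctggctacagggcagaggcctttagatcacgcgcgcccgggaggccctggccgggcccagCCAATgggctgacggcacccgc
Motifs were searched on both strands: the TATA box as TATAAA, the CCAAT box by its own letters, the GC box as GGGCGG, and, as a core found in binding sites of HNF4A, AAAGTNCA. None of these 4 motifs contains another. The Otc window held 1 match to the HNF4A core, the Nags window 2 to the GC box and the Slc25a13 window 1 to the CCAAT box. Among all 32851 promoter windows of the table, scanned over the same upstream length, 3.53% held the HNF4A core, 32.7% a GC box, 33.9% a CCAAT box and 12.4% a TATA box. A match is a run of letters and not a measured binding site.

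In the annotation of build GRCm38 the 8 genes lie on 8 chromosomes: Cps1 at chr1:67123026-67231259, Ass1 at chr2:31470207-31520672, Asl at chr5:130011258-130029247, Slc25a13 at chr6:6041218-6217173, Slc25a15 at chr8:22375551-22398597, Arg1 at chr10:24915221-24927484, Nags at chr11:102145513-102149477 and Otc at chrX:10252305-10321024. Cps1, Ass1, Nags and Otc are on the plus strand and the others on the minus strand.

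The libraries differed in ways that bear on every value below. Library totals ran from 80927744 UMIs (48 h) to 136110607 (P14), the hepatocytes' median depth from 18527 UMIs (adult control) to 38922.5 (P14), and the median UMIs of an empty droplet from 287 (48 h) to 1330 (adult control). Of the 9 hepatocyte markers found none was at 0 in any library, but Alb, Apoa1 and Ttr, which the gate required, were among them. The 9 summed to between 46345 CPM (24 h) and 186141 CPM (P14). The 8 markers each of endothelial, T or NK, B, and monocyte or macrophage cells summed to at most 24.6 CPM everywhere. No endothelial and no T or NK marker was at 0 in any library either. Neutrophil markers summed to between 11.5 CPM (adult control) and 196 CPM (48 h). Erythroid markers summed to between 124 CPM (P14) and 762 CPM (48 h), bile duct markers to between 35.6 and 188 CPM with Krt19 at 0 in all 4 adult libraries, and mesenchymal markers to at most 46.3 CPM. Xist stood at 840 CPM in the P14 hepatocytes and at most 0.0744 CPM in the 4 adult libraries, while the Y-linked gene Ddx3y was at 0 CPM at P14 and between 112 and 140 CPM in those 4, so age and sex cannot be told apart when P14 is set against the adult control. The treatment text counts the control among the operated mice although its title, source and age call it adult control, and a number in its description differs from that of the other 4 (2 against 1), so that number and the control cannot be told apart either. Hepatocyte barcode sequences were shared by 2 cells between P14 and the adult control and by 1 cell between P14 and 48 h.

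The first reaction is made by Cps1, carbamoyl phosphate synthetase, the most abundant of the members in each library. Cps1 stood at 2382 CPM at P14, 3366 in the control, and 5127, 1974 and 3134 at 24, 48 and 96 h. Its level was thus above the control at 24 h, below it at 48 h and near it at 96 h, and no neighbouring levels in that order had overlapping counting intervals. Over the adult control the log2 ratio was 0.61 at 24 h, a 1.52-fold difference, -0.77 at 48 h and -0.10 at 96 h. From 24 h to 48 h it fell 2.6-fold (log2 ratio -1.38, counting interval -1.39 to -1.36), a lower value than all but 0.646% of the genes compared. Cps1 accounted for 52.0% of the members' UMIs at 24 h, against 41.3% in the control and 39.3% at 48 h.

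Nags, N-acetylglutamate synthase, makes the cofactor without which Cps1 is inactive. It was the lowest of the 8, at 41.2 CPM at P14, 63.9 in the control, and 93.7, 98.7 and 85.2 at 24, 48 and 96 h. All 3 PHx libraries lay above the control and P14 lay below it, and the intervals of 24 and 48 h, and of 24 and 96 h, overlapped. Its log2 ratios over the control were 0.55, 0.62 and 0.41 at 24, 48 and 96 h, so that at 48 h Nags and Cps1 stood on opposite sides of it. At that time Nags was the only member called higher.

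Otc, ornithine transcarbamylase, joins carbamoyl phosphate to ornithine to form citrulline. Otc was found at 756 CPM at P14, 710 in the control, and 321, 240 and 694 at 24, 48 and 96 h. The P14, control and 96 h libraries were high and the 24 and 48 h libraries low, with the control and 96 h intervals overlapping. Against the control Otc was 2.21-fold lower at 24 h (log2 ratio -1.14, interval -1.19 to -1.10) and 2.95-fold lower at 48 h (log2 ratio -1.56), and between 48 and 96 h it rose 2.89-fold. That rise exceeded those of 98.6% of the genes compared. Cps1 and Otc, which catalyse successive steps in the same compartment, thus lay on opposite sides of the control at 24 h.

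**Figure D1:**
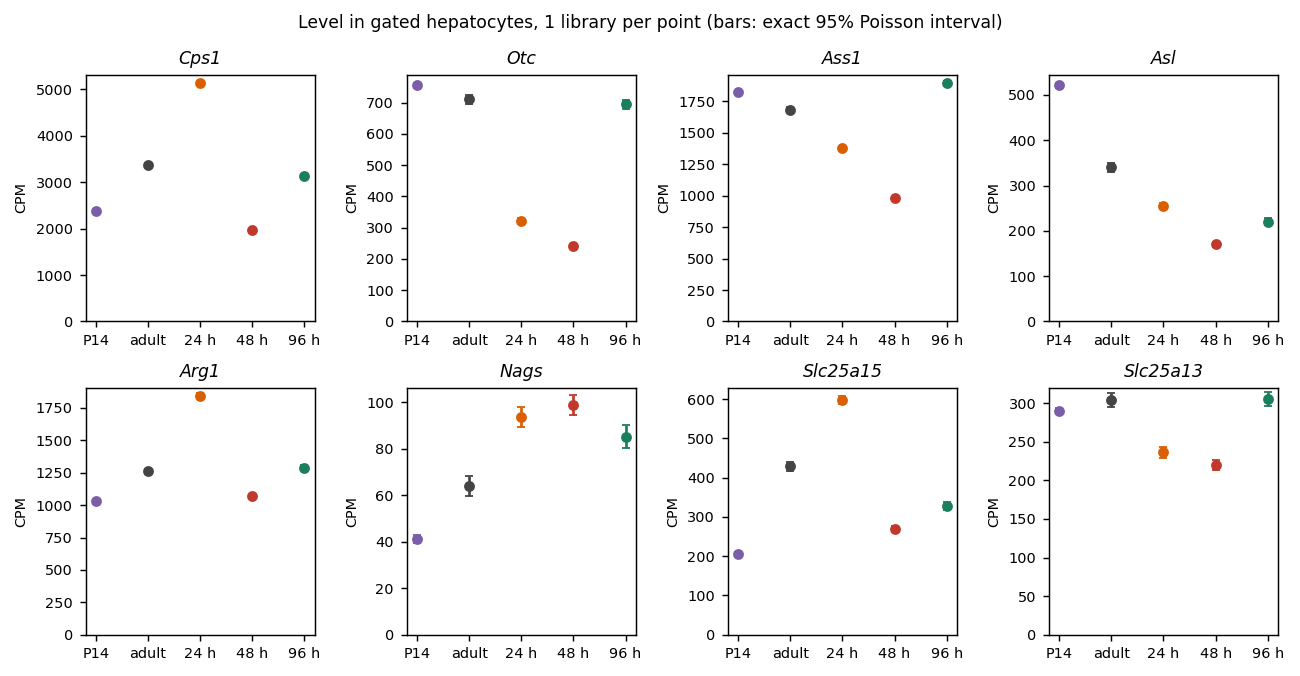
Level of each gene in CPM (vertical axes, starting at 0) in the hepatocytes of the 5 libraries (horizontal axes), 1 point per library, with bars for the exact 95% Poisson interval. Otc stood at 710 CPM in the control, fell to 240 by 48 h and was back at 694 by 96 h, while Cps1 was highest at 24 h.

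In the cytosol, Ass1, argininosuccinate synthetase, joins citrulline to aspartate. Ass1 was at 1821 CPM at P14, 1681 in the control, and 1376, 980 and 1892 at 24, 48 and 96 h. It was lowest at 48 h, 1.71-fold below the control (log2 ratio -0.78), and rose 1.93-fold from 48 to 96 h. At 96 h it lay above every other library, by a log2 ratio of 0.17 over the control.

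Asl, argininosuccinate lyase, splits the product into arginine and fumarate. It was measured at 521 CPM at P14, 340 in the control, and 255, 171 and 220 at 24, 48 and 96 h. All PHx libraries were below the control and P14 was above it, with no overlap of neighbouring intervals. The lowest value, at 48 h, was 1.99-fold under the control, and Asl was the only member still called lower at 96 h (log2 ratio -0.63, interval -0.70 to -0.56), a call lost under 4 of 14 other settings.

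Arg1, arginase, releases urea and regenerates ornithine. Its levels were 1032 CPM at P14, 1262 in the control, and 1844, 1068 and 1288 at 24, 48 and 96 h. Like Cps1, Arg1 stood highest at 24 h (log2 ratio 0.55 over the control, short of the call) and fell 1.73-fold from 24 to 48 h. The control and 96 h intervals overlapped.

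Slc25a15 exchanges cytosolic ornithine for mitochondrial citrulline and so links both compartments. It was at 207 CPM at P14, 429 in the control, and 597, 270 and 328 at 24, 48 and 96 h. The order of the adult libraries was that of Cps1, with 24 h highest and 48 h lowest. Slc25a15 fell 2.21-fold between 24 and 48 h and was 2.07-fold lower at P14 than in the control, the widest gap of any member in that comparison.

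Slc25a13, also called citrin, exports the aspartate that Ass1 consumes. Its values were 290 CPM at P14, 304 in the control, and 236, 219 and 305 at 24, 48 and 96 h. The 24 and 48 h libraries were the lower ones, by log2 ratios of -0.36 and -0.47 against the control, and neither reached the fold for a call. Without barcodes that also carried markers of another cell type, the 48 h ratio was -0.68, past that fold, with 90 hepatocytes left at 48 h. The control and 96 h intervals overlapped.

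Counted against the adult control, 1 of the 8 members (Otc) was called lower and 1 (Cps1) higher at 24 h, where 17.4% of all 9028 genes compared were lower and 19.0% higher. At 48 h, 5 members were lower (Cps1, Otc, Ass1, Asl and Slc25a15) and 1 higher, where the background shares were 19.6% lower and 17.4% higher. At 96 h, 1 member was lower and 0 were higher, against backgrounds of 6.92% and 12.3%. The members' median log2 ratios were 0.09, -0.72 and -0.01 in time order, beside -0.00, -0.08 and 0.04 over all genes compared. These 3 comparisons share the control library, so that any peculiarity of it enters all of them.

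The direct steps between PHx libraries do not use the control. From 24 to 48 h, 3 of the 8 members were lower (Cps1, Slc25a15 and Arg1) and 0 higher, where 7.01% of genes were lower and 5.13% higher. From 48 to 96 h, 3 were higher (Otc, Ass1 and Cps1) and 0 lower, where 13.9% of genes were higher and 8.35% lower. The median of the members was -0.53 in the first step and 0.42 in the second, against -0.07 and 0.11 over all genes.

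Together the 8 genes made up 0.815% of the non-mitochondrial UMIs in the control, and 0.985%, 0.502% and 0.795% at 24, 48 and 96 h. The sum was therefore highest at 24 h, when Cps1 was at its highest and Otc and Asl were already below the control. In the same hepatocytes 17 acute phase and metallothionein genes, which encode plasma and metal-binding proteins made in inflammation, summed to 20025 CPM in the control, and 98993, 127320 and 20391 at 24, 48 and 96 h. Because CPM is a share, those UMIs lower the CPM of every other gene, and leaving them out moved the median of all genes from -0.00 to 0.12 at 24 h and from -0.08 to 0.09 at 48 h. Without them 4 members stood at least 1.5-fold above the control at 24 h (Cps1 0.73, Arg1 0.67, Nags 0.67 and Slc25a15 0.60), where the share of all genes also moved, to 23.4% higher and 13.3% lower, and the Otc ratio there was -1.02 in place of -1.14. From 48 to 96 h, leaving these UMIs out moved the median of all genes from 0.11 to -0.05. In that step 2 members were then higher, where 8.69% of all genes were higher and 12.5% lower. The 8 neutrophil markers also moved with time in these barcodes, from 11.5 CPM in the control to 105 at 24 h, 196 at 48 h and 21.6 at 96 h, and their part in the members' values was not tested.

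At P14 the counts of called members were near what the shares of all genes would give. Against the adult control, 2 of the 8 were lower (Slc25a15 and Nags) and 1 higher (Asl, log2 ratio 0.61), where 31.2% of genes were lower and 14.3% higher. The members' median log2 ratio of -0.18 lay near that of all genes, -0.26. TMM normalisation, which matches libraries on genes of middling change, moved the median of all genes to 0.08 and the members' to 0.16, and only Slc25a15 was then still called lower, where 16.2% of genes were lower and 24.8% higher. Cps1 was lower by a log2 ratio of -0.50 and Arg1 by -0.29, whereas Otc, Ass1 and Slc25a13 stood within 0.12 of the control before such scaling. Set against the median of all genes, Cps1 was at -0.24, Arg1 at -0.03, Otc at 0.35, Ass1 at 0.38 and Slc25a13 at 0.19. The 8 together were 0.705% of UMIs, of which Cps1 took 33.8%, its smallest share in any library.

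**Figure D2:**
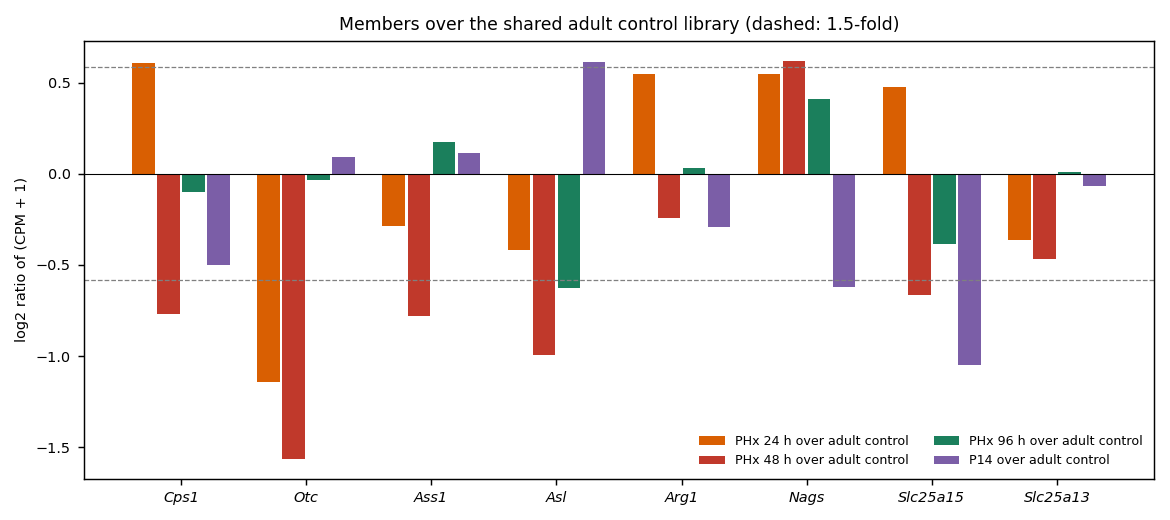
Log2 ratio of (CPM + 1) of each member over the shared adult control library (vertical axis) for the 3 PHx libraries and P14, with dashed lines at 1.5-fold. Otc reached -1.14 and -1.56 at 24 and 48 h, Nags was above 0 in all 3 PHx bars, and Asl was below 0 in each of them and above 0 at P14.

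Of the 18 calls of members between libraries, 8 were lost under at least 1 of 14 other settings, most of them close to the 1.5-fold line, whose log2 value is 0.585. Settings that changed only the minimum level of a compared gene left every ratio as it was, so no call could be lost under them. The 10 that were kept under all 14 included both falls of Otc, the 48 h values of Cps1 and Asl, and the falls of Cps1, Slc25a15 and Arg1 from 24 to 48 h. The 24 h call of Cps1 was lost where the plasma protein minimum was raised to 2% (0.55) or the lower mitochondrial limit was dropped (0.46). For Nags at 48 h the ratio fell to 0.34 without barcodes that also carried markers of another cell type, which left 90 hepatocytes there, to 0.54 with no lower mitochondrial limit and to 0.56 with a larger pseudocount. The 96 h value of Asl ran from -0.77 to -0.19, and its P14 value from 0.40 to 0.96, over these settings. Nags at P14 went from -0.62 to as little as -0.28, and its call was lost under 5 of them. The weakest values were -0.55 for Ass1 and -0.50 for Slc25a15 at 48 h, and 0.30 for Cps1 from 48 to 96 h.

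How widely the members were found was read after each hepatocyte was thinned to 5000 UMIs, beside barcodes with at least 3 markers of T, NK or B cells, which should lack the liver's cycle, thinned alike. Those lymphocyte barcodes had median depths of 6464 to 9194 UMIs before thinning. In the control the medians were 1330 UMIs for an empty droplet, 6464 for a lymphocyte barcode and 18527 for a hepatocyte. RNA as in empty droplets can thus make up more of a thinned lymphocyte barcode than of a thinned hepatocyte. The lymphocyte shares may therefore overstate the background of the hepatocytes. Otc was detected in 91.0% of control hepatocytes (95% interval 89.0% to 92.8%), 70.9% at 24 h (68.2% to 73.4%), 60.6% at 48 h (57.0% to 64.2%) and 91.1% at 96 h, so the share was lowest at 48 h. The lymphocyte barcodes gave 70.5% in the control, and 31.4%, 10.4% and 51.3% at 24, 48 and 96 h, so the share in the control stood on the highest background of the 4. Unthinned, Otc had a UMI in at least 96.7% of hepatocytes in each library.

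Nags, the scarcest, was found in 20.9% of control hepatocytes and 32.3% at 48 h (28.9% to 35.8%), against 7.08% and 1.77% of lymphocyte barcodes, and unthinned in 56.0% and 86.2% of hepatocytes. Asl went from 73.7% of hepatocytes in the control to 42.8% at 48 h, beside 60.5% and 14.9% of lymphocyte barcodes (unthinned hepatocytes 97.9% and 89.0%). Cps1 was found in 99.7% of control hepatocytes but also in 98.3% of the control's lymphocyte barcodes, so its share there cannot be told from background. At 48 h the corresponding shares of Cps1 were 98.1% and 17.2%.

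Single cells differed within a library. The median hepatocyte held 3455 CPM of Cps1 in the control, with 2199 CPM at the 10th and 4694 at the 90th percentile. At 24 h the same 3 values were 3184, 5463 and 7710 CPM, and at 48 h they were 920, 2069 and 3411. The 10th percentile at 24 h thus came close to the control's median, and the 90th percentile at 48 h fell just short of it. For Otc the median hepatocyte held 738 CPM in the control, and 318, 242 and 700 CPM at the successive times after PHx.

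Within each library, members were compared across hepatocytes of at least 10000 UMIs as a description, since cells of 1 library share its capture, depth and free RNA. Pearson's r over 5 libraries was 0.58 to 0.70 between Cps1 and Arg1, 0.42 to 0.70 between Ass1 and Arg1, and 0.45 to 0.67 between Cps1 and Ass1. Otc and Cps1 gave 0.23 to 0.50. Nags, with few UMIs per cell, gave -0.10 to 0.14 with the other members.

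The position of a hepatocyte between central and portal vein was read from a zone index, the share of periportal UMIs among those of 6 pericentral genes (Cyp2e1, Cyp1a2, Cyp2c37, Cyp2c50, Gulo and Glul) and 6 periportal genes (Cyp2f2, Hsd17b13, Hal, Sds, Pck1 and Gls2), none of them a member. Cells of each library with at least 20 such UMIs were divided into 3 bins of equal size by the index. A bin is a range of a score and not a cell type, and 63 to 253 cells per library lay within 2 percentage points of a boundary. Boundaries differed between libraries, so bins are compared only within one.

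Cps1, Otc, Ass1, Asl and Arg1 were higher at the periportal end than at the pericentral end in all 5 libraries. The rise was not always steady. In the control Cps1 and Asl were highest in the middle bin (3712 CPM against 3578 at the periportal end, and 374 against 366). Arg1 was alike in these 2 bins of the control (1429 and 1433 CPM). For Arg1 the log2 ratio between the ends was 0.60 in the control, then 0.53, 0.90 and 1.00 at 24, 48 and 96 h, and 1.30 at P14. Ass1 gave 0.60 in the control, then 0.28, 1.24 and 0.76, and 1.03 at P14. Asl gave up to 1.22 (P14) and Otc up to 0.99 (48 h). Cps1 ran from 0.33 in the control to 0.79 at 48 h.

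The ornithine carrier Slc25a15 had gradients from 0.04 in the control to 0.66 at P14. Nags lay between -0.32 and 0.01 and Slc25a13 between -0.28 and 0.12, so neither reached 1.5-fold in any library. Some gradients of Cps1, Otc, Ass1, Asl and Arg1 also fell short of 1.5-fold, and several were of like size. Otc gave 0.23 at P14, Ass1 0.28 at 24 h, Cps1 0.33 and Asl 0.36 in the control, and Arg1 0.53 at 24 h. The differences between libraries in these gradients were not tested. Bin boundaries, cell depth and the UMIs of empty droplets also differed between libraries, so the gradients cannot be ranked across them. Otc held 563 CPM at the pericentral and 801 at the periportal end of the control, and 161 and 321 CPM at 48 h, each set of bins having its own boundaries.

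**Figure D3:**
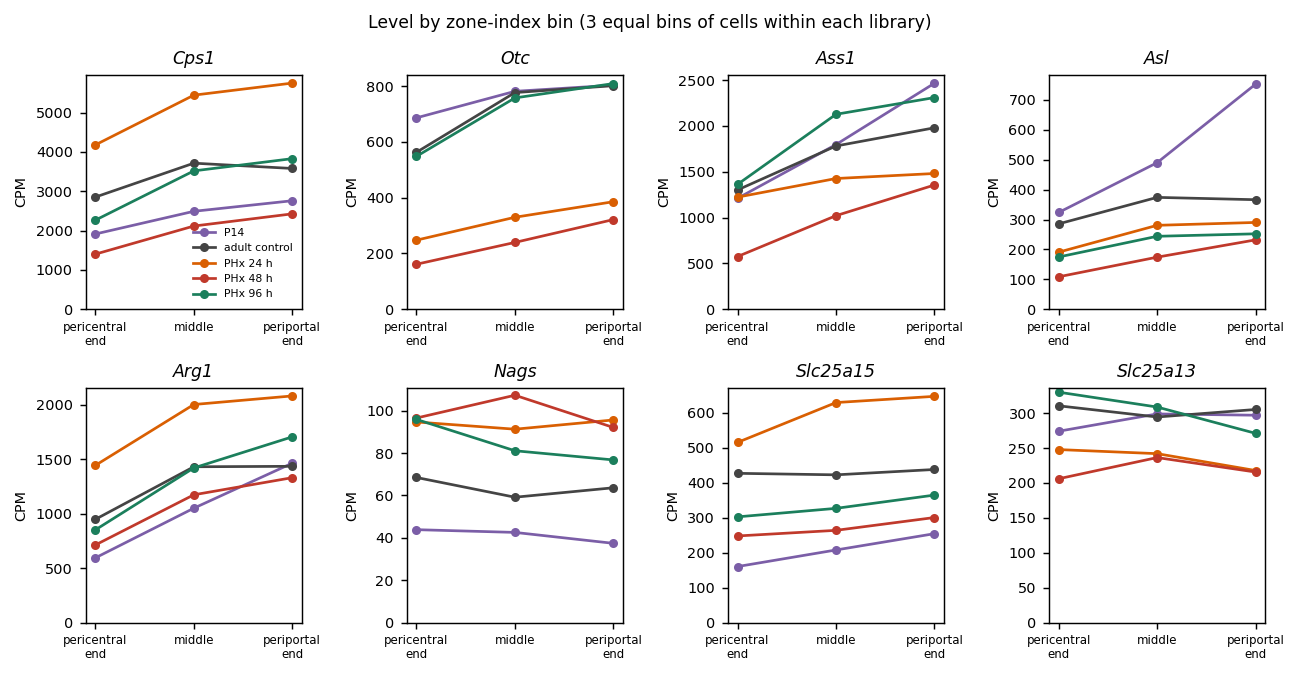
Level in CPM (vertical axes, starting at 0) in 3 equal bins of hepatocytes ordered by zone index (horizontal axes), 1 line per library. Arg1, Ass1, Asl, Otc and Cps1 were higher at the periportal end in every library. Nags and Slc25a13 differed in direction between libraries and fell toward that end at 96 h (log2 ratios -0.32 and -0.28).

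Hepatocytes with at least 1 UMI of Mki67 or Top2a, genes of proliferating cells, are called positive here and the others negative. Positive cells numbered 589 of 2106 at P14 (28.0%), 15 of 925 in the control (1.62%), 360 of 1170 at 24 h (30.8%), 400 of 719 at 48 h (55.6%) and 136 of 771 at 96 h (17.6%). After thinning to 5000 UMIs the shares were 13.2%, 0.324%, 17.6%, 35.0% and 8.04%. The control's 15 cells were too few for a ratio, for which 30 were required. Positive cells were the deeper ones after PHx, with median depths of 23732, 41820 and 28114.5 UMIs at 24, 48 and 96 h, where negative cells had 18175.5, 30149 and 20858. At P14 the depths were alike (38903 and 38929).

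The 5 enzymes of the cycle proper were lower in positive than in negative cells at each time after PHx. Cps1 had log2 ratios of -0.30 at 24 h, -0.48 at 48 h and -0.55 at 96 h (counting interval -0.59 to -0.51), and was at 2296 CPM in positive and 3360 CPM in negative cells at 96 h. Over all settings run, its ratio kept its sign but ranged from -0.43 to -0.08 at 24 h. The range was -0.71 to -0.26 at 48 h and -0.75 to -0.11 at 96 h. Otc gave -0.28, -0.33 and -0.52, Asl -0.38, -0.21 and -0.53, Arg1 -0.29, -0.08 and -0.50, and Ass1 -0.18, -0.10 and -0.49. Over all cells the gap at 96 h was the widest for all 5. In the pericentral and middle zone bins it was not the widest for Cps1, Otc, Asl or Arg1, and the periportal bin gave no value at 96 h. At 48 h the sign of Ass1 turned under 1 of 19 other settings (0.20, mitochondrial share of 10% to 20%) and that of Arg1 under 2 (0.04 in the same cells and 0.03 by depth bins).

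Nags was higher in positive cells at 48 h (108 against 81.7 CPM, log2 ratio 0.41, interval 0.27 to 0.55) and at 96 h (0.35, interval 0.16 to 0.55), and at 24 h its ratio was -0.02 with an interval from -0.16 to 0.12. Slc25a13 gave 0.03, 0.31 and 0.24 at 24, 48 and 96 h. The median of all genes was itself 0.18 at 48 h and at 96 h. Set against that median, Nags was at 0.22 and 0.18 and Slc25a13 at 0.12 and 0.06. Over the settings run, Slc25a13 went down to 0.08 at 48 h and 0.04 at 96 h, and Nags to 0.17 and 0.15. Slc25a15, with -0.17, -0.14 and -0.02, lay on the side of the enzymes at 24 and 48 h.

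None of the 8 was called in these comparisons. At 24 h 0 of 8 were lower, where 0.564% of genes were lower and 9.41% higher, and at 48 h 0 of 8, where 1.54% were lower and 14.5% higher. At 96 h the shares were 3.44% and 14.4%, again with 0 members. The median member stood at -0.23, -0.12 and -0.49 at 24, 48 and 96 h, beside medians of 0.07, 0.18 and 0.18 over all genes. At 96 h TMM normalisation moved the median of all genes to -0.02 and 5 members (the enzymes of the cycle proper) past 1.5-fold, and with it 7.44% of all genes were lower and 8.45% higher. Median-of-ratios scaling also gave 5 members (7.45% of genes lower), 5 other choices of cells gave 1 to 3 (3.52% to 5.08% of genes lower), and the remaining settings gave 0.

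At P14 the positive over negative ratios of the members were mixed in sign. Asl was lower in positive cells (-0.17, counting interval -0.21 to -0.14), also within zone bins (-0.17, -0.25 and -0.29 from the pericentral end). The members' median log2 ratio was 0.02 against 0.15 over all genes, with 0 of 8 called where 0.0115% of genes were lower and 7.93% higher. Values ran from -0.17 for Asl to 0.10 for Nags, and Cps1 was at 2406 CPM in positive and 2372 in negative cells. With TMM scaling the median of all genes moved to -0.09 and all 8 members were negative, from -0.42 for Asl to -0.14 for Nags, so that the 6 above 0 at P14 changed sign with the scaling.

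**Figure D4:**
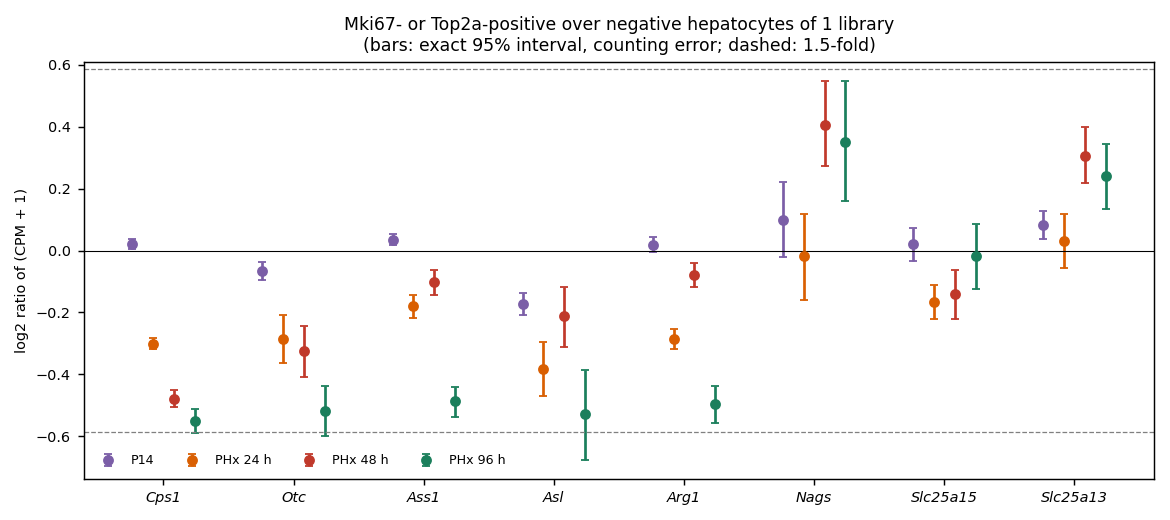
Log2 ratio of (CPM + 1) in Mki67- or Top2a-positive over negative hepatocytes of the same library (vertical axis) for each member, with exact 95% counting intervals and dashed lines at 1.5-fold. The 5 cycle enzymes lay below 0 at 24, 48 and 96 h, Nags and Slc25a13 above 0 at 48 and 96 h, and P14 values within 0.17 of 0. The median of all genes was 0.18 at 48 h and at 96 h.

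Position in the lobule moved with these ratios. At 96 h, positive cells were 34.1% of the pericentral bin, 16.5% of the middle bin and 2.75% of the periportal bin, and at 24 h the shares were 39.1%, 34.2% and 19.3%. At 48 h the order was otherwise, with 47.1%, 61.8% and 58.2%. Averaged over the 3 bins, each weighted by its positive cells, Cps1 stood at -0.24, -0.54 and -0.29 at 24, 48 and 96 h. At 96 h the gap was thus smaller than over all cells (-0.55), and at 48 h it was not. The Arg1 ratio at 96 h went from -0.50 to -0.14 in the same way, and that of Nags from 0.35 to 0.26. The periportal bin at 96 h had 7 positive cells, too few for a ratio of its own, but entered these averages with that weight.

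Inside single bins Cps1 was lower in positive cells in all 8 bins after PHx that gave a ratio. At 48 h its values were -0.51, -0.53 and -0.56 from the pericentral to the periportal bin, and at 24 h -0.18, -0.23 and -0.36. Ass1 at 24 h was slightly higher in positive cells of the pericentral bin (0.06) and lower in the middle and periportal bins (-0.17 and -0.36). Nags at 48 h was higher in positive cells in each bin, by 0.37, 0.51 and 0.33. When cells were matched in 5 depth bins, Cps1 stood at -0.22, -0.40 and -0.43 at 24, 48 and 96 h and Nags at 0.50 at 48 h, while the ratio of Arg1 at 48 h went from -0.08 to 0.03.

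Free RNA, released by broken hepatocytes and captured in every droplet, carried the same genes. In empty droplets Cps1 stood at 1638 CPM at P14, 4089 in the control, and 2110, 806 and 1430 at 24, 48 and 96 h. The control was therefore the library with the highest free Cps1, above the 3366 CPM of its hepatocytes. Ass1 was at 4197 CPM in the control's empty droplets and 1681 in its hepatocytes, and Asl at 786 and 340. With free RNA subtracted, the Cps1 ratio at 24 h was 0.67, the Otc ratio at 24 h -1.08 and the Asl ratio at 96 h -0.46, the last no longer a call.

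Around the cycle, 48 genes in 5 lists were set beside the members. These lists were also chosen with earlier results of these data known, so their counts are a description only. Of 14 genes that handle ammonia, glutamine and glutamate, 12 could be compared at 24 h, of which 7 were lower and 0 higher than the control, and 13 at 48 h, again with 7 lower and 0 higher. Over all genes the shares were those given above, 17.4% lower and 19.0% higher at 24 h, and 19.6% and 17.4% at 48 h, and the counts of the other lists are to be read against the same shares. Glul, glutamine synthetase, which takes up ammonia left by the cycle, had log2 ratios of -1.15 at 24 h, -0.52 at 48 h and -0.09 at 96 h. The glutaminase Gls2, which releases ammonia for Cps1, gave -1.13, -1.98 and -0.05. Hal, histidase, gave -0.68, -2.07 and 0.11. The amino acid carriers Slc38a3 and Slc38a4 were at -0.98 and -1.59 at 24 h, and the glutamate carrier Slc1a2 at -1.33. Car5a, which supplies Cps1 with bicarbonate, stood at -0.76 at 24 h and -0.53 at 48 h, and Sirt5, which deacylates Cps1, at -0.14 and -0.62. Glud1, glutamate dehydrogenase, stayed within 0.19 of the control at all 3 times. Glul, Hal and Gls2 are also genes of the zone index.

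The ornithine and arginine genes differed from one another. Of 12, only 8 passed the minimum level, with 3 higher and 1 lower at 24 h, 1 higher and 2 lower at 48 h, and 1 higher and 0 lower at 96 h, where all genes gave 12.3% higher and 6.92% lower. Oat, ornithine aminotransferase, which draws ornithine from the cycle, was at 1.90 at 24 h, 0.59 at 48 h, 0.01 at 96 h and -3.06 at P14. Odc1, which turns ornithine into polyamine precursor, was at 0.70 at 24 h and -0.25 at 48 h, and the cationic amino acid carrier Slc7a2 at -0.63 and -1.57. Arg2, the mitochondrial arginase, stayed under the minimum level.

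In pyrimidine synthesis, which also starts from carbamoyl phosphate, 3 of 5 genes were higher at 24 h and 0 lower, and 2 were higher and 1 lower at 48 h, beside 19.0% and 17.4% of all genes higher. Cad, the enzyme of its first steps, was at 0.67 at 24 h and 0.81 at 48 h, and Ctps at 2.24 and 0.83. Cps1 and Cad were thus both above the control at 24 h and on opposite sides of it at 48 h. Among 9 genes of aspartate, malate and fumarate turnover, 1 was higher and 0 lower at 24 h, and 1 higher and 2 lower at 48 h (all genes 17.4% and 19.6%), one of the latter being the aminotransferase Got1 (-0.89). Slc25a12, the paralog of Slc25a13, was at 0.38 and 0.23.

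Of 8 regulators, 2 were lower and 1 higher at 24 h, 5 lower and 1 higher at 48 h, and 1 lower and 0 higher at 96 h. Over all genes 17.4% were lower and 19.0% higher at 24 h, 19.6% lower and 17.4% higher at 48 h, and 6.92% lower and 12.3% higher at 96 h. Cebpa, a transcription factor of mature hepatocytes, was at -2.26 at 24 h, -2.10 at 48 h and -0.42 at 96 h. Cebpb, its relative, was at 1.07, 0.71 and -0.26. The glucagon receptor Gcgr was lower at all 3 times, by -1.01, -0.94 and -0.83, and Hnf4a stood at -0.21, -0.76 and -0.42. At P14, 3 of the 8 were lower and 1 higher (Ppargc1a, 1.19), beside 31.2% and 14.3% of all genes. No link between a regulator and a member was tested.

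The course of each member over the 5 libraries was last compared with that of other genes, as the root mean square difference of centred log2 levels. Among members Ass1 and Slc25a13 were closest (0.18), followed by Cps1 and Arg1 (0.21) and Cps1 and Slc25a15 (0.23), and Otc and Nags were farthest apart (1.07). Of all other genes with at least 50 CPM in some library, those nearest to the members' mean course were Acat3 (0.049) and Agxt2 (0.051), followed by Pex19, Slc25a10, Ppp3ca, Bhmt2, Akr1e1 and Bptf. The members themselves lay farther from that mean, from 0.19 (Slc25a13) to 0.58 (Otc), so it is not the course of any single member. For Slc25a15 the nearest gene was Slc25a22 (0.10), which encodes a mitochondrial glutamate carrier.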

How the data were processed

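Hepatocyte values came from unfiltered UMI count matrices that the authors deposited for each of the 5 libraries, whole numbers per gene and barcode, with 10x software 3.0.2 per the file headers. The submitters' processing notes name bcl2fastq 2.17.1.14, Cell Ranger, Seurat 3.1 and build mm10, and what each did is not given in the sources used here. The 8 members and all gene lists were chosen with earlier results of these data known.

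From the counts, UMIs were summed over gated hepatocytes of a library and divided by their non-mitochondrial total (CPM). Genes of at least 5 CPM on either side of a comparison were compared as log2(CPM + 1), with a call at 1.5-fold. With 1 library per group no test was run. All 8 members are named. Of the lists, genes at least 1.5-fold apart and among the 4 farthest of their list, and direct partners of members, may be named, and for likeness the 8 nearest genes. The nearest gene to Slc25a15 was named after its value was seen. Free RNA is the mean of barcodes ranked 20000 to 60000 by UMIs. Barcodes of other cell types had at least 1000 UMIs, at least 3 markers of 1 type and under 10% mitochondrial UMIs. No doublet caller was run; an alternative left out hepatocytes with 2 or more markers of another type. TMM came from edgeR 4.0.16 and median-of-ratios from DESeq2 1.42.0 (R 4.3.3), on the summed counts, for scaling only. Intervals used scipy 1.17.1 (Python 3.11.15). The log2 ratio, the call and the ratio interval were tested on 1 simulated pair of libraries, and the other steps were not. Gene positions are GENCODE's on GRCm38, and promoters RefSeq's on GRCm38.p6.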

Additional observations from a re-analysis of the deposited data

Results flagged for a closer look

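Some members stood higher against Alb in barcodes of other cell types than in empty droplets. As a scale, the UMIs of a member were set per 1000 UMIs of Alb. This ratio was not constant: of 200 values of a member in a set of barcodes, 59 had an interval wholly above that of empty droplets and 18 wholly below. Among the latter, Cps1 in the B cell barcodes at 24 h was at 135 against 289, and in the T or NK barcodes at P14 Otc was at 8.70 against 23.4 and Ass1 at 25.7 against 48.3. A value above empty droplets is therefore not shown to exceed free RNA. The values given first are those of at least 10 UMIs whose 95% counting interval lay wholly above 1.5 times that of empty droplets. Arginase is known in activated macrophages, and Arg1 in the 26 monocyte or macrophage marker barcodes at 24 h reached 638 per 1000 Alb UMIs (171 UMIs) against 231 in empty droplets. At 96 h the same set, also of 26 barcodes, gave 182 (116 UMIs) against 61.5. At 48 h it was at 250 (22 UMIs) against 136, and in the control (84.7 against 80.1) and at P14 (19.7 against 20.5) it lay near empty droplets. In the 82 endothelial barcodes at 96 h Ass1 was at 354 (636 UMIs) against 205, and other members stood above empty droplets there too: Otc at 83.6 against 54.9, Arg1 at 95.3 against 61.5, Asl at 29.5 against 16.4 and Slc25a15 at 18.9 against 11.2, while Cps1 was at 66.9 against 67.3. At 48 h Ass1 was above the 221 of empty droplets in all 5 sets of barcodes, at 369 in the 192 neutrophil barcodes (497 UMIs), 360 in B cell, 352 in monocyte or macrophage, 297 in endothelial and 296 in T or NK barcodes. At 96 h it was also at 292 in T or NK and 283 in monocyte or macrophage barcodes. At P14 Ass1 was at 116 in the 12 monocyte or macrophage barcodes (59 UMIs) and 68.6 in B cell barcodes against 48.3, and below it in the other sets.

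Asl at 48 h was at 67.3 in the 482 T or NK barcodes (107 UMIs), 70.5 in the neutrophil barcodes (95 UMIs) and 114 in the 16 monocyte or macrophage barcodes (10 UMIs), against 31.3 in empty droplets. The B cell barcodes (57.0, 56 UMIs) and endothelial barcodes (54.8, 12 UMIs) at 48 h were higher than empty droplets too, the latter with an interval from 28.3 to 95.7. Slc25a13, which many tissues express, was at 10.8 in the 99 B cell barcodes (42 UMIs) and 25.6 in the monocyte or macrophage barcodes (13 UMIs) at P14, against 4.50, and at 23.5 in the monocyte or macrophage barcodes at 96 h (15 UMIs) against 8.14. Of the values short of that interval, Ass1 at 24 h was at 642 in the monocyte or macrophage, 546 in the neutrophil and 519 in the T or NK barcodes against 379, and Arg1 in the 24 h neutrophil barcodes at 351 against 231. These sets are small and rest on 1 library each, and doublets with hepatocytes were not tested.

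The positive over negative ratios of Cps1 and Ass1 had opposite signs at P14 and after PHx, each with a counting interval that left out 0. Such intervals leave out the spread between cells. At P14 the variance over mean of thinned UMIs, 1 for counting noise alone, was 1.94 for Cps1 and 2.56 for Ass1. For Cps1 the log2 ratio was 0.020 at P14 and -0.30, -0.48 and -0.55 at 24, 48 and 96 h. For Ass1 it was 0.035 at P14 and -0.18, -0.10 and -0.49. The difference between libraries was not tested. Against the median of all genes both lay lower at P14 too, by -0.13 and -0.11, the side they were on after PHx. Within zone bins at P14 Ass1 was negative in all 3 (-0.04, -0.08 and -0.00 from the pericentral end) and Cps1 in 2 (-0.07, -0.03 and 0.03), where positive cells were 23.1%, 28.8% and 31.9%. Under 4 of 19 other settings the P14 ratio of Cps1 was negative, and under 3 of 19 that of Ass1, both scalings and the mean over zone bins among them.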

How the results depend on the processing

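No paired analysis was possible because each group has 1 library, and no replicate could be left out. No called value of a member changed sign under any of the settings run, and 182 of 215 recomputed counts of called members stayed within 1.5 times the count reported. Many of the reported counts were 0, where staying meant 0 again. Settings that changed only the minimum level of a compared gene could not alter a ratio, so the 182 overstate the agreement. The members higher than the control at 24 h (1 of 8) became 3 with TMM, 2 with CPM over all UMIs, with free RNA subtracted or with the mean of single-cell CPM, 4 without acute phase genes, and 0 with no lower mitochondrial limit or a plasma protein share of at least 2%. The share of all genes higher moved the same way as these counts, from 19.0% to 20.9%, 19.9%, 19.4%, 19.6%, 23.4%, 17.5% and 17.9% in that order. Those higher at 48 h (1) became 0 with a pseudocount of 10, with no lower mitochondrial limit and without mixed barcodes. At 96 h the members lower (1) became 0 from 10000 UMIs upward and with free RNA subtracted. The call of Asl was also lost with a mitochondrial share of 10% to 20% (-0.19) and with no lower limit (-0.56), where Slc25a15 was called in its place (-0.74 and -0.62). Under the same settings, the first of which left 53 cells at 96 h, the members higher (0) became 1. At P14 the members lower (2) became 1 with TMM, median-of-ratios, CPM over all UMIs, a pseudocount of 10 and a mitochondrial share of 10% to 20%, and the members higher (1) became 0 with no lower mitochondrial limit, a plasma protein share of at least 2%, single-cell means and without mixed barcodes. From 24 to 48 h the members lower (3) became 6 with a mitochondrial share of 10% to 20%. From 48 to 96 h the members higher (3) became 2 with TMM, median-of-ratios, without acute phase genes and with no lower mitochondrial limit. All genes higher were then 10.2%, 10.2%, 8.69% and 13.4% in that order. They became 4 members with a mitochondrial share of 10% to 20% (17.2% of all genes) and without mixed barcodes (18.9%). In positive over negative cells the members lower (0) became 1 at 48 h with TMM or median-of-ratios, and at 96 h 5 with either of these, 3 with no lower mitochondrial limit, 2 with at least 2 UMIs of Mki67 and Top2a or at least 3 mitosis genes, and 1 without mixed barcodes or when called at 5000 UMIs. The 96 h ratio was not run for a mitochondrial share of 10% to 20%, which left 6 positive cells. Other counts were likewise set against shares that moved: at P14, genes lower went from 31.2% to 16.2% with TMM, 18.9% with median-of-ratios and 19.6% with a pseudocount of 10, and at 96 h genes higher from 12.3% to 17.9% and 14.9% under the 2 mitochondrial limits. The cause of these changes was not tested. Alternatives for the counts of members higher over the control were chosen after the data were seen. With 1 library per group the spread between animals is unknown, and the intervals cover counting error only.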

Other observations

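Across the 5 libraries the median hepatocyte, thinned to 5000 UMIs, held UMIs of 6 of the 8 members, except at 48 h, where it held 5. All 8 were seen together in 7.78% of control hepatocytes, 7.01% at 24 h, 2.09% at 48 h, 5.19% at 96 h and 4.08% at P14.

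The variance of thinned UMIs over their mean, which is 1 for counting noise alone, was 1.01 to 1.16 for Slc25a13 and 0.97 to 1.21 for Nags. Cps1 gave 1.86 in the control and 2.89 at 24 h, and Ass1 1.54 in the control and 2.56 at P14.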
